A study of Mus musculus with 3 samples.

Results

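Oxidative phosphorylation genes were read in the neural retina of wild-type mice at postnatal day 7. The genes were all those with a probe set that the platform annotation assigns to a single gene symbol beginning with Nduf, Sdha to Sdhd, Uqc, Cox4 to Cox8, Cox10 to Cox19, Surf1 or Atp5, or equal to Cyc1. The rule found 82 genes, read by 111 probe sets, among 8251 named genes on the array. Of these, 31 belong to complex I, 6 to complex II, 11 to complex III, 20 to complex IV and 14 to complex V. A further 11 probe sets list such a gene together with another gene and were left out by the rule.

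Each of the 3 samples was total RNA from a pool of neural retinas from 3 to 4 mice on a mixed 129/SvEv and C57BL/6 background, hybridised to an Affymetrix MG-U74Av2 array. The mice were wildtype littermates of Rp1-/- animals, and their retinas were taken between 1 and 2 pm. All samples fall in 1 group, so no conditions were compared. What can be asked is which oxidative phosphorylation genes gave signal and how much they varied from pool to pool. The samples are called pools 1, 2 and 3, as names only. Rod genes served to check the tissue. Of 6 measured rod markers, 5 were above background in all pools, among them Sag, the rod arrestin gene, at 13718 ± 1455 (mean ± SD, n = 3 pools, as for all such values below). The other, Gnat1, was at 219, 699 and 680 in pools 1, 2 and 3, above background in pools 2 and 3 only.

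Oxidative phosphorylation couples electron transfer in the inner mitochondrial membrane to ATP synthesis. Complexes I and II pass electrons from NADH and succinate to ubiquinone, complex III passes them on to cytochrome c, complex IV hands them to oxygen, and complex V uses the proton gradient so formed to make ATP. Photoreceptors are among the most energy-demanding cells of the body and pack mitochondria into their inner segments. Several subunits of complex IV exist as isoforms, some general and some made mainly in heart and skeletal muscle or in testis. Subunits encoded by the mitochondrial genome were not analysed here.

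Promoters of some isoform genes are shown because the Cox6a and Cox7a isoforms differed in whether they had signal. The Cox8 family did not divide in this way, as both its general form Cox8a and its muscle form Cox8b were below background. The window of Cox8a is not shown and held no match to the letters searched. Each window is the 250 bases before the gene's start in RefSeq's table for GRCm38.p6, 5′ to 3′ on the gene's strand. Capitals mark matches on either strand to CGCATGC, the centre of the site of NRF1, an activator of many respiratory genes, and to CCGGAAG, a core of sites for ETS factors. TATAAA was searched as well. The windows of Cox6a1 and Cox7a2, genes of general isoforms, lie at chr5:115348959-115349208 and chr9:79759854-79760103, both on the minus strand. Those of Cox7a1 and Cox8b, genes of muscle isoforms, lie at chr7:30183921-30184170 on the plus strand and chr7:140900447-140900696 on the minus strand.
Cox6a1: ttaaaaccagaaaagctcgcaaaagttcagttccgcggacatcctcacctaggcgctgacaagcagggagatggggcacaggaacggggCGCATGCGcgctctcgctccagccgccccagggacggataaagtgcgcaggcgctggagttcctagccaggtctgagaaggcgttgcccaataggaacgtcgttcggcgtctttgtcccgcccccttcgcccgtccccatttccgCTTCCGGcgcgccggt
Cox7a2: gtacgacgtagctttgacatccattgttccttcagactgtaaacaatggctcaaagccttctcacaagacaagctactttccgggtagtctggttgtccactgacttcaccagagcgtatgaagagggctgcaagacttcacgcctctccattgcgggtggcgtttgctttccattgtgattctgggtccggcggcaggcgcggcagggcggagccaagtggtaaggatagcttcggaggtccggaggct
Cox7a1: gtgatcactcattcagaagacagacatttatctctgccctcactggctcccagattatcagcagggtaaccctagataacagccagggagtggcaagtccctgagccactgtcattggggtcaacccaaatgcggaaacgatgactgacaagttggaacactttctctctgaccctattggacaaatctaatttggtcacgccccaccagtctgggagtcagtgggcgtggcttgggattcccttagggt
Cox8b: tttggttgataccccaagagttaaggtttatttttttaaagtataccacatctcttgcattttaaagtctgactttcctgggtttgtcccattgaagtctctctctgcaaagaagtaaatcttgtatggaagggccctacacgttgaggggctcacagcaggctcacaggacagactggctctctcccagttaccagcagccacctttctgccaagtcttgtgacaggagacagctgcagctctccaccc
Cox6a1 held the NRF1 letters on both strands at one place, as 2 overlapping matches, and 1 match to the ETS letters. No capitals appear in the other windows, which says only that these letters are not in them. Of the 82 genes, 66 had a promoter in the table. The NRF1 letters were in 8 of these 66 (12.1%), against 3.79% of 17492 protein-coding promoters. Of these genes, Cox6a1, Ndufa8, Sdhb and Atp5l were above background in all pools. Ndufa6, Ndufaf4, Atp5g2 and Atp5k were not, by the probe set chosen for each. The ETS letters were in 13 of 66 (19.7%), against 9.13%, and TATAAA in 5 of 66 (7.58%), against 12.4%. The median GC content of the windows was 57.6%, against 55.2% in all protein-coding promoters. A match is a description of the letters and not a bound site. The motifs were chosen after the intensities were seen, and the NRF1 letters were shortened after a longer form had been searched. These shares are thus descriptive and no test.

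Signal above background was common among the genes of subunits and assembly factors, and its share differed between complexes. A gene counted as above background where its probe set passed, in every pool, the 90th percentile of 53 genes typical of other organs, among them liver, pancreas, pituitary and testis. This bar was an intensity of 348, 302 and 367 in pools 1, 2 and 3. By it 57 of the 82 genes (69.5%) had signal in all pools, against 3389 of all 8251 genes (41.1%). The count was 10 of 11 for complex III, 24 of 31 for complex I, 4 of 6 for complex II, 8 of 14 for complex V and 11 of 20 for complex IV. Of the other 25 genes, 7 passed in 1 or 2 pools and 18 in none. The counts of all complexes but V include assembly factors. By role, 11 of 15 core subunit genes, 38 of 54 accessory subunit genes and 8 of 13 assembly genes had signal in all pools. In these counts Uqcrc1, Uqcrc2, Cox4i1, Cox5a, Cox5b and Atp5o were held as accessory. Intensities of different probe sets cannot be ranked as transcript levels, because each responds differently, and in whole tissue fewer cells of a type cannot be told apart from less RNA per cell.

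**Figure D1:**
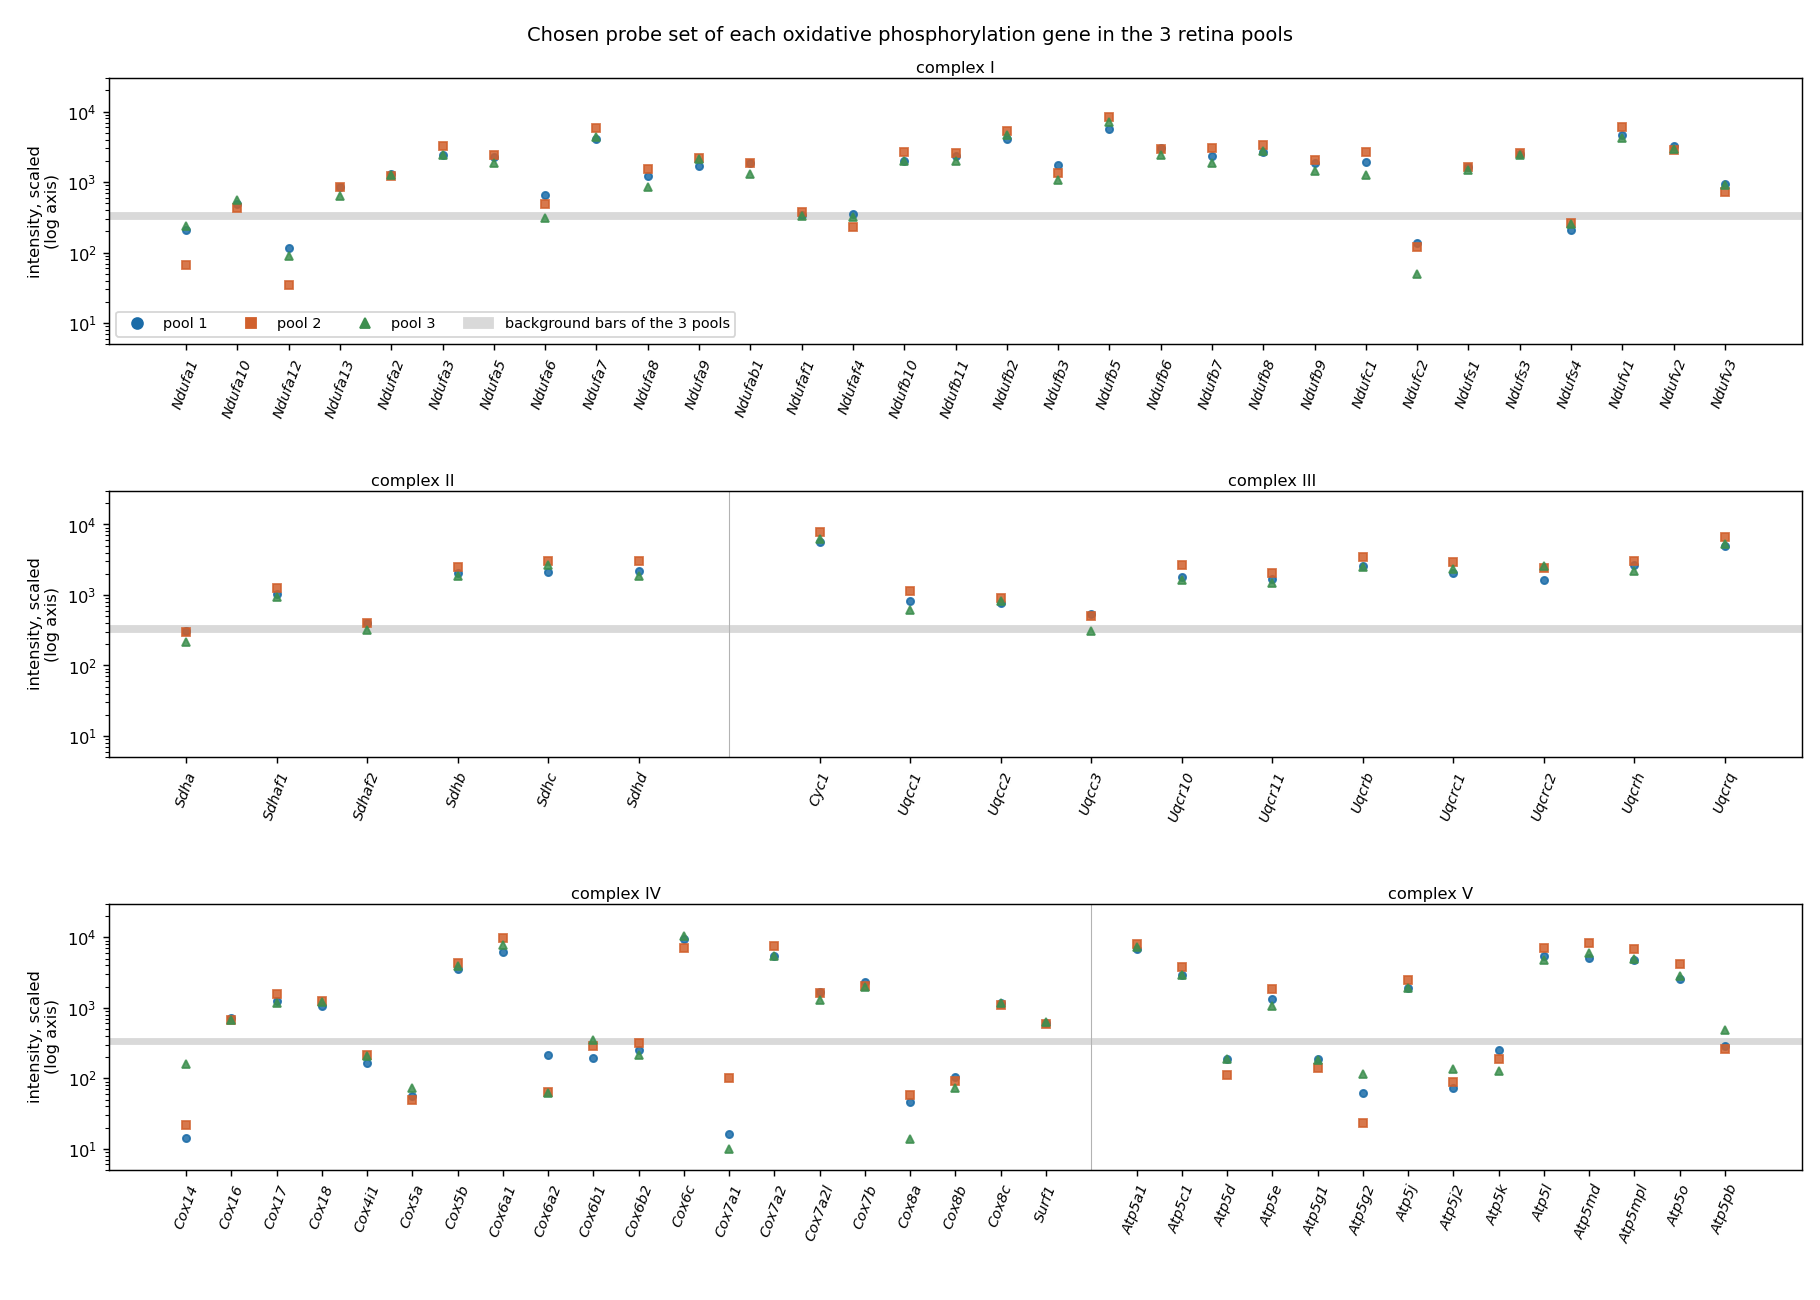
Scaled intensity (log axis) of the chosen probe set of each of the 82 genes, by complex, with 1 symbol per pool. The grey band spans the background bars of the pools, from 302 to 367. Of the 11 complex III genes, 10 lie above the bar in all pools, while in complexes IV and V genes far above it stand beside genes far below it.

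The 4 core genes read from the peripheral arm of complex I, which takes electrons from NADH, were well above the bar. Ndufv1, the NADH-binding flavoprotein subunit, was at 4714, 5977 and 4232 in pools 1, 2 and 3. Ndufs1, the largest iron-sulphur subunit, was at 1638, 1656 and 1511. Ndufs3, of the module that binds ubiquinone, was at 2466, 2602 and 2458. For the last of these the pools differed by no more than 1.06-fold. Ndufv2, another iron-sulphur subunit, was at 3213, 2854 and 2983, and thus lowest in pool 2, where Ndufv1 was highest.

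Most of the accessory subunits that surround the complex I core had signal too. Ndufa2, Ndufa3, Ndufa5, Ndufa7, Ndufa8, Ndufa9, Ndufa10, Ndufa13, Ndufab1, Ndufb2, Ndufb3, Ndufb5, Ndufb6, Ndufb7, Ndufb8, Ndufb9, Ndufb10, Ndufb11, Ndufc1 and Ndufv3 were above background in all pools, with means from 495 for Ndufa10 to 7060 for Ndufb5. Of these, Ndufa3, Ndufb2 and Ndufb5 were represented by probe sets of a type that can be shared within a gene family. Ndufab1, the mitochondrial acyl carrier protein, was at 1850, 1844 and 1292. Ndufa6 passed the bar in 2 pools, at 662, 497 and 306. The genes below it in every pool were Ndufa1, Ndufa12, Ndufc2 and Ndufs4. Ndufs4, whose loss in mice causes an encephalopathy resembling Leigh syndrome, was at 208, 264 and 259. The assembly factors Ndufaf1 and Ndufaf4 lay near the bar, at 337, 377 and 335 and at 355, 233 and 325, each above it in 1 pool.

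Complex II, the succinate dehydrogenase shared with the citric acid cycle, had signal for 3 of its 4 subunit genes. Sdhb, the iron-sulphur subunit, was at 2021, 2511 and 1849 in pools 1, 2 and 3. The membrane anchors Sdhc and Sdhd were at 2141, 3059 and 2642 and at 2163, 3019 and 1853. All of these were highest in pool 2. Sdha, the flavoprotein that oxidises succinate, was read by a single probe set at 311, 299 and 212, below the bar in every pool but close to it in pool 2. Sdhaf1, an assembly factor for the iron-sulphur subunit, was at 1029, 1260 and 937, and Sdhaf2, which helps attach flavin to Sdha, passed in 2 pools at 397, 399 and 323.

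Complex III genes were above background with 1 exception. Cyc1, the cytochrome c1 gene, was at 5703, 7791 and 6140 in pools 1, 2 and 3. Uqcrc1 and Uqcrc2, known as core proteins though counted above as accessory, were at 2051, 2925 and 2362 and at 1631, 2392 and 2617. By the chosen probe sets, Uqcrc2 was the only complex III gene above background in all pools that was highest in pool 3. A second probe set of Cyc1 was highest there too, at 2340, 2416 and 2804. Uqcrc2 and Uqcrb were read only by probe sets of a type that can be shared within a gene family. The small subunits Uqcrb, Uqcrq, Uqcrh, Uqcr10 and Uqcr11 had means from 1726 to 5625, and each was highest in pool 2. Of the assembly factors, Uqcc1 was at 828, 1157 and 605 and Uqcc2 at 780, 915 and 832. Uqcc3 passed the bar in 2 pools, at 541, 501 and 306. The Rieske protein gene Uqcrfs1 was not analysed here.

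Complex IV had the lowest share of genes with signal (55%, next to 57.1% for complex V), and its nuclear-encoded subunits fell on both sides of the bar. This share counts the muscle and testis forms Cox6a2, Cox7a1, Cox8b and Cox6b2, not above it in all pools, and Cox8c, which was. The rank of complex IV thus depends on which isoform genes the rule took in. Cox5b was at 3498, 4257 and 3931 in pools 1, 2 and 3. Cox6c was at 9560, 7093 and 10564 by a probe set of a type that can be shared within a gene family. Cox6c was lowest in pool 2, as were Cox8c and Surf1 among the complex IV genes above background. Cox5a, which pairs with Cox4i1 in the enzyme, was at 55.7, 48.9 and 71.8 by one probe set and at 39.1, 6.21 and 34.9 by the other, below the bar throughout. Both probe sets of Cox5a thus gave no signal for a subunit with no known isoform in mammals, so a gene below the bar cannot be read as silent.

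Genes that build complex IV had signal, Cox14 apart. Surf1, an assembly factor mutated in human Leigh syndrome, was at 609, 593 and 637 in pools 1, 2 and 3. Cox17, the copper chaperone, was at 1231, 1588 and 1164. Cox18, which inserts a mitochondrially encoded subunit into the membrane, was at 1052, 1262 and 1212, and Cox16 at 709, 670 and 661. Cox7a2l, a relative of Cox7a2 that helps join complexes III and IV, was at 1680, 1635 and 1273. All of these stayed above the bar in each pool. Cox14 was at 14.2, 21.6 and 157, below it.

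Of the 13 isoform genes read, 4 were above background in all pools: Cox6a1, Cox7a2, Cox7b and Cox8c. The share was 41.1% over all genes on the array and 69.5% over all members. With the bar at the 75th percentile, 8 of the 13 passed. Cox6a1, the general form of subunit VIa, was at 6171, 9663 and 7763 in pools 1, 2 and 3. It was read only by a probe set of a type that can be shared within a gene family. The heart and muscle counterpart Cox6a2 was at 217, 63.4 and 62.1, under the bar in each pool. Likewise Cox7a2, the general form of subunit VIIa, was at 5350, 7518 and 5495. Cox7a1, the heart and muscle form, was at 16.3, 102 and 9.88. For both subunits, then, the probe set of the general form was above the bar in each pool and that of the muscle form below it in each. Of 13 muscle markers, 1 was above background, Casq1 at 420, 484 and 542. Ckm, the muscle creatine kinase gene, was at 237, 161 and 237 and Acta1, skeletal actin, at 129, 158 and 85.3. The summed intensity of the muscle list was 1685, 1295 and 1586.

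Subunit VIII did not follow the same division. Cox8a, the general form, was at 45.7, 58.6 and 13.7 in pools 1, 2 and 3, and Cox8b, the heart and muscle form, at 104, 90.4 and 73.7. Another probe set of Cox8b was at 314, 249 and 328, also below the bar. Cox8c, known as a testis form, was at 1172, 1092 and 1179 by one probe set, above the bar in all pools and with an SD of 0.06 on the log2 scale. Its other probe set was at 12.3, 4.68 and 7.19. The probe sets of Cox8c thus disagree, and with the mean of both the gene fell below the bar. Of 9 measured markers of brown fat and testis germ cells, 0 were above the bar in any pool, and the germ cell gene Prm1 was at 4.71, 7.95 and 118. The summed intensity of these 9 genes was 187, 420 and 475. Which transcript the brighter Cox8c probe set detected was not tested.

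Other isoform families were read incompletely. Cox6b1, the general form of subunit VIb, was at 194, 286 and 348 in pools 1, 2 and 3, and the testis form Cox6b2 at 248, 312 and 217 by its chosen probe set. The further probe sets of Cox6b2 were at 254, 172 and 124 and at 21.6, 29.4 and 8.63. Neither gene passed the bar in all pools. Cox4i1, the general form of subunit IV, was at 165, 214 and 206, and its second probe set, of a type that can be shared within a gene family, at 286, 446 and 366, above the bar in pool 2. Cox7b was at 2324, 2059 and 1964. Cox4i2, Cox7b2, Ndufa4 and Ndufa4l2 were not analysed here.

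**Figure D2:**
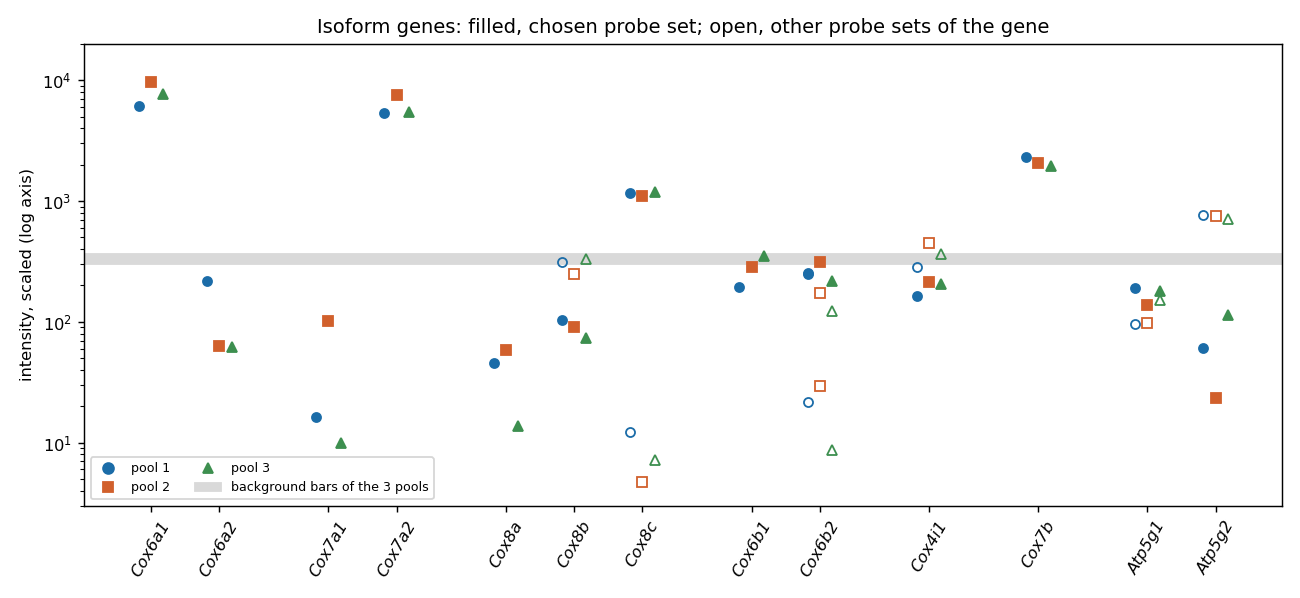
Scaled intensity (log axis) in each pool of the 13 isoform genes. Filled symbols show the chosen probe set and open symbols the others, and the grey band spans the background bars, 302 to 367. Cox6a1 and Cox7a2 lie above the band and Cox6a2 and Cox7a1 below it, and the 2 probe sets of Cox8c lie on either side.

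Complex V genes were mostly either far above the bar or below it. In the catalytic head, Atp5a1, the alpha subunit, was at 6904, 7989 and 7231 in pools 1, 2 and 3. Atp5c1, the gamma subunit that turns inside the head, was at 2966, 3752 and 2906, and a second probe set of it was at 3918, 6317 and 4605. Atp5e, the epsilon subunit, was at 1349, 1873 and 1051. Pool 2 was the highest for each of these. Atp5o, which links head and stalk, was at 2523, 4140 and 2855. The stalk subunit Atp5j was at 1931, 2495 and 1914, and the membrane subunit Atp5l at 5352, 7070 and 4750. Atp5md and Atp5mpl, small proteins attached to the membrane part, had means of 6436 ± 1690 and 5538 ± 1166. All 8 complex V genes above background were highest in pool 2, against 58.7% of all genes above background. The beta subunit gene Atp5b was not analysed here.

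The complex V genes without signal in all pools were Atp5d, Atp5g1, Atp5g2, Atp5j2, Atp5k and Atp5pb. Atp5pb, subunit b of the stalk, was at 284, 262 and 486 in pools 1, 2 and 3 and passed in pool 3. Atp5k and Atp5j2, membrane subunits, were at 251, 186 and 128 and at 73.98, 87.1 and 136. Atp5g1 and Atp5g2 encode the same mature c subunit of the rotor with different import sequences. Atp5g1 was at 190, 139 and 181 by one probe set and at 96.5, 97.5 and 152 by the other. Atp5g2 was at 61.1, 23.3 and 114 by the chosen probe set, but at 761, 746 and 715 by one of the family type. For Atp5d, the delta subunit, the chosen probe set was at 186, 113 and 187 and another of the same type at 28.9, 183 and 258. The 3 of the family type were at 505, 736 and 709, at 422, 445 and 439 and at 411, 318 and 433, above the bar in every pool. With any probe set counted, 59 of the 82 genes had signal in all pools. Atp5g3 was not analysed here.

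Among the 22 genes read by more than 1 probe set, the probe sets of 12 fell on both sides of the bar. The share over all such genes on the array was not computed, so this count cannot be read as a trait of the members. Besides Atp5d, Atp5g2 and Cox8c the 12 were Atp5l, Cox6c, Cox18, Ndufa3, Ndufb2, Ndufb6, Ndufb7, Ndufb10 and Ndufv2. A second probe set of Atp5l was at 145, 90.4 and 56.9 in pools 1, 2 and 3. The dim probe sets of Cox6c were at 77.9, 22.9 and 25.04 and at 53.7, 18.3 and 27.9, and that of Cox18 was at 15.4, 31.0 and 60.1. Each of these genes also had a probe set well above the bar, and which of them reads the gene was not tested.

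In complex I the same was seen for 6 genes. Ndufb2 was at 4107, 5372 and 4623 and at 3450, 4398 and 3539 in pools 1, 2 and 3 by a pair of probe sets, but at 9.43, 27.3 and 7.002 and at 9.52, 4.90 and 6.33 by another pair. Ndufa3 was at 2388, 3227 and 2446 and, by its other probe set, at 101, 201 and 141. Ndufb10 was at 1990, 2715 and 1993 and at 16.7, 56.7 and 18.3. Within each of these genes the probe sets share an annotated symbol and yet lie on both sides of the bar. Ndufb6 was at 3060, 2952 and 2392 and at 33.1, 13.8 and 8.73. Ndufb7 was at 2360, 3021 and 1887 and at 11.4, 52.8 and 49.9, with neither probe set carrying a letter suffix. The family-type probe set of Ndufv2 was at 259, 266 and 291.

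**Figure D3:**
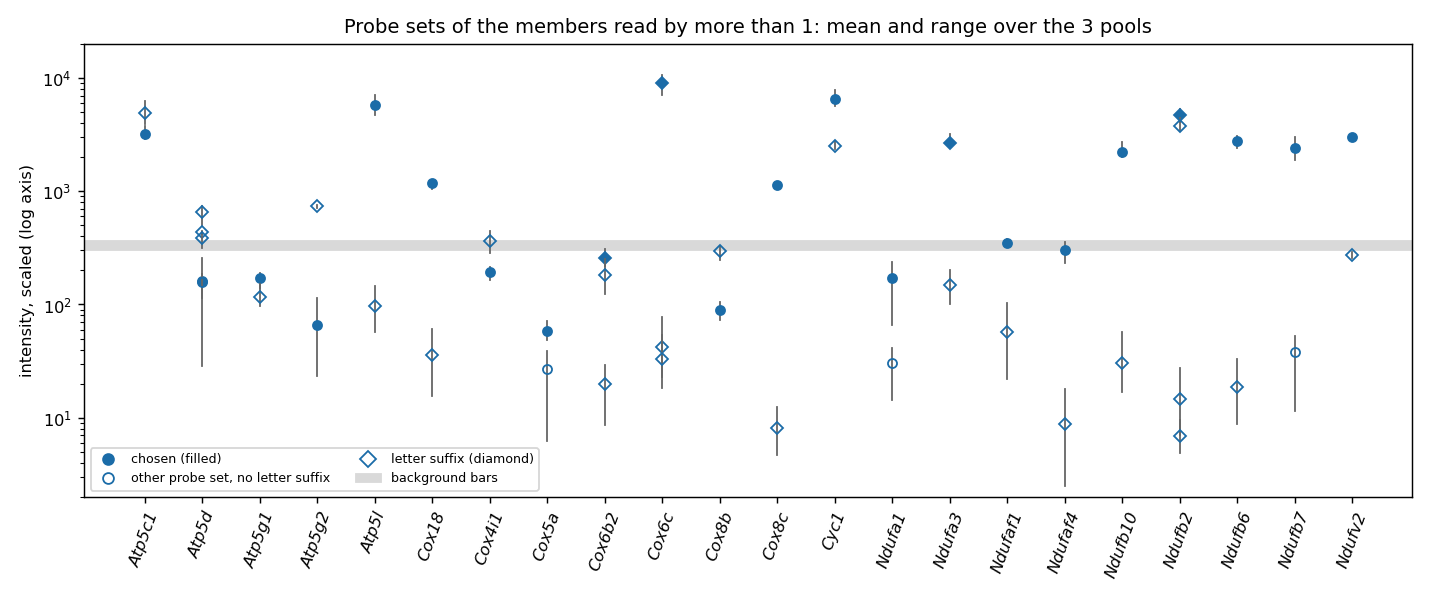
Mean (symbol) and range (line) over the 3 pools of the scaled intensity, log axis, of each probe set of the 22 genes read by more than 1. Filled symbols are chosen, diamonds have a letter suffix and the grey band spans the background bars. For 12 genes the probe sets lie on both sides of the bar.

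The spread between pools was close to that of all genes. Among the 57 above background the median SD was 0.24 on the log2 scale, against 0.23 for all 3389 genes above it. By complex it was 0.23 for I, 0.24 for II, 0.25 for III, 0.14 for IV and 0.29 for V. In 56 of 57 genes the highest pool was within 2-fold of the lowest (98.2%, against 96.6% of all genes above background), and in 45 of 57 within 1.5-fold (78.9%, against 71.3%). Excess spread, a variance over the 3 pools beyond that of probe sets of like brightness, was tested with limma on the brighter 50% of all probe sets. It was called for 0 of 77 member probe sets tested at an adjusted p below 0.05, where the background over all 6211 probe sets was 1.34%. The smallest limma adjusted p of a member was 0.548. On simulated data this test recovered 5.67% of 2-fold changes in 1 array, so most changes of that size would be missed. At an unadjusted p below 0.05 there were 2 of 77 (2.60%), against 420 of 6211 (6.76%). The labels say no more of the replicates than that each pooled several mice, so these p-values measure the spread between the samples at hand, which may be partly technical.

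The widest spread among genes above background was that of Ndufc1, an accessory subunit of the membrane arm of complex I, at 1956, 2718 and 1271 in pools 1, 2 and 3. Its SD was 0.55 on the log2 scale, with a limma adjusted p of 0.548. Next were Uqcc1 (SD 0.47), Ndufa8 at 1219, 1550 and 866 (0.42), Atp5e (0.42) and Atp5o (0.37). All 5 were highest in pool 2, as were 58.7% of all genes above background with this scaling. The narrowest was that of Ndufs3 (SD 0.05), followed by Ndufa2 at 1323, 1234 and 1274, Surf1, Cox16 and Cox8c, with SDs of 0.05 to 0.06. Ndufs3 apart, none of these was highest in pool 2.

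Pool 2 was the highest for most genes of complexes II, III and V and for fewer of complex IV. Of the 57 genes, 43 were highest in pool 2 (75.4%), against 58.7% of all genes above background. This held for 8 of 8 genes in complex V, 4 of 4 in complex II, 9 of 10 in complex III, 17 of 24 in complex I and 5 of 11 in complex IV. The median log2 deviation from a gene's own mean was -0.06, 0.24 and -0.12 in pools 1, 2 and 3, against -0.05, 0.13 and -0.09 for all genes above background. By complex, the deviation in pool 2 was 0.33 for V, 0.26 for III, 0.25 for II, 0.17 for I and 0.11 for IV. These are differences between single arrays of the order of the SD and have no test.

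The values depend on how the arrays were scaled to each other. Without scaling the deviation in pool 2 was 0.12 for the members and 0.01 for all genes above background. After quantile normalisation it was 0.05 and 0.01. The deviation of complex V was 0.21 on unscaled values and 0.14 on quantile-normalised ones, that of complex I 0.045 and -0.0052, and that of complex IV -0.01 and -0.075, so the sign turned for complex I after quantile normalisation and for complex IV under both. Of the 57 members 32 (56.1%) were highest in pool 2 on unscaled values and 29 (50.9%) on quantile-normalised ones, and of the 24 in complex I 10 and 9. Under either choice 7 of 8 genes in complex V and 3 of 11 in complex IV were highest in pool 2. The share over all genes was then 36.5% or 34.4%. Other features moved with the pools as well. The globin gene Hba-a1, a marker of blood, was at 2914, 6705 and 2821 in pools 1, 2 and 3. The summed intensity of 6 rod markers was 26493, 33426 and 28398, but Nrl alone of them was highest in pool 1, at 777, 617 and 487. For 3 lens markers the sum was 10670, 58497 and 55923. The 3' to 5' ratio of Actb, a measure of RNA length, was 1.81, 1.27 and 1.30, and that of Gapdh was 0.874, 0.788 and 0.812. The part of these in the deviations was not tested.

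**Figure D4:**
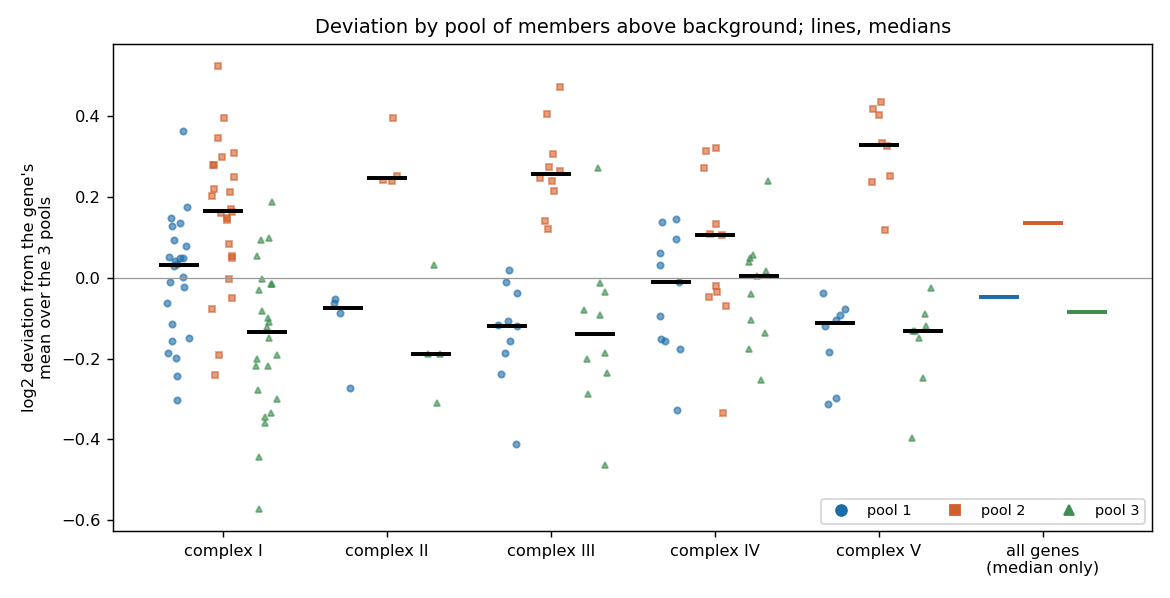
Log2 deviation of each of the 57 genes above background from its mean over the pools, by complex and pool. Black lines are medians, and coloured lines on the right are the medians of all genes above background. In pool 2 the medians run from 0.11 in complex IV to 0.33 in complex V, against 0.13 for all genes.

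Other genes of mitochondrial respiration, from a list that holds no subunit of the complexes, were above background for 8 of 21 measured (38.1%), against 41.1% of all genes. The ADP/ATP carrier gene Slc25a4 was at 7402, 9488 and 7835 in pools 1, 2 and 3, and Atpif1, the inhibitor of complex V, at 3058, 3504 and 2824. Both were highest in pool 2. Etfa and Etfb, which pass electrons from fatty acid oxidation to ubiquinone, were at 711, 717 and 568 and at 605, 562 and 656. Vdac3, a pore of the outer membrane, Phb2, Lrpprc and Gabpa, an ETS factor gene, were the others above background, with means of 1309, 1539, 590 and 550.1. Cycs, the gene of cytochrome c, passed in 2 pools, at 435, 316 and 346.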

How the data were processed

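The values were intensities per probe set on a linear scale, as deposited by the authors. Per the values, each array had been scaled to a mean of about 500.2 without the lowest and highest 2%. Which software made them, and with what background correction, is not given in the sources used here. After 66 control probe sets were left out, 12422 remained, of which 10833 had 1 annotated gene, 396 several and 1193 none here. Symbols were updated by gene ID through RefSeq (GRCm38.p6), which changed no member's. Each gene was represented by a probe set without a letter suffix before any other, then by the highest mean. Letter suffixes mark probe sets that may be shared in a gene family or were made under relaxed rules. Among genes above background, Ndufa3, Ndufb2, Ndufb5, Sdhaf1, Uqcrb, Uqcrc2, Cox6a1, Cox6c and Atp5md were represented by the family type. Arrays were divided by their medians and multiplied by the mean median (factors 0.962, 1.09 and 0.959), and floored at the 20th percentile, 42.2, for log2 values only. Printed intensities are scaled, not floored.

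Excess spread was tested with limma 3.58.1 (R 4.3.3) by squeezeVar with the robust option and level as covariate, and adjusted by the Benjamini-Hochberg method over 6211 probe sets. Tested on simulated data at that size, the share recovered was 5.67% for changes of 2-fold in 1 array, 79.1% for 4-fold changes and 100% where they were 8-fold. The number of arrays limits the precision. The members and lists were chosen with earlier results of these data known. Of the unrelated-tissue genes, Cel, Lhb and Tff1 were above the bar. Values in every pool are given for isoform genes, named core subunits, genes whose probe sets fell on both sides of the bar, and the 5 widest and 5 narrowest by SD. The named core subunits include Uqcrc1, Uqcrc2, Cox4i1, Cox5a, Cox5b and Atp5o, which the counts by role hold as accessory. The promoter motifs were chosen after the intensities were seen, and the NRF1 letters were shortened after a longer form had been searched.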

Additional observations from a re-analysis of the deposited data

How the results depend on the processing

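The 57 genes above background were 57 without scaling and after quantile normalisation, 70 with the bar at the 75th percentile, 53 at the 95th, 59 with any probe set, 51 with the mean of all probe sets, and between 57 and 60 with a pool left out. The isoform genes above background numbered 4, but 8 at the 75th percentile, where Cox4i1, Cox6b1, Cox6b2 and Atp5g1 passed, 5 with any probe set (Atp5g2) and 3 with the mean of all probe sets, without Cox8c. No member probe set had excess spread under any alternative run, while the count over all probe sets moved from 83 to 6 without scaling, 6 after quantile normalisation, 0 when dim ones were tested too, 28 when the brightest 25% alone were, 38 without the robust option, and 9 to 30 with a pool left out, so the 1.34% background falls with it. After quantile normalisation the median deviation in pool 2 was -0.075 for complex IV, against 0.11 with median scaling, and -0.0052 for complex I, against 0.17, and in pool 1 it was 0.02 for all members, against -0.06, and 0.004 for complex II, against -0.07. On unscaled values the sign turned for complex IV in pools 1 (0.05) and 2 (-0.01). In comparisons added after seeing the data, the genes highest in pool 2 were 10 of complex I and 3 of complex IV without scaling, 9 and 3 after quantile normalisation, and for complex IV 5 to 8 when pool 1 or pool 3 was left out. The cause was not tested. Of 126 deviations under the alternatives other than leaving out a pool, 125 moved by less than the median SD of their genes. That SD was larger than most of the deviations, so one could vanish and still be counted here. This count thus does not show that they were stable. For all members in pool 2 the deviation was 0.24 with median scaling and 0.05 after quantile normalisation. No paired analysis was possible because all samples are of 1 group.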

Other observations

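By type of probe set, 45 of 72 without a letter suffix, 13 of 21 of the family type and 2 of 12 of the type made under relaxed rules were above the bar in all pools, among the 111 probe sets of oxidative phosphorylation genes. For the suffixes _g, _i and _s the counts were 1 of 1, 1 of 3 and 2 of 2. Shares by type over the whole array were not computed, so these counts cannot be read as a trait of the members.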
